A study of Mus musculus with 6 samples.

Results

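The genes described here are the 3 estrogen receptor genes, *Esr1*, *Esr2* and *Gper1*, and a pair of genes that estrogen receptors switch on directly, *Pgr* and *Greb1*. They are 5 of the 27179 genes in the count files and were found by gene symbol. They were chosen by the large difference in *Esr1* counts between the groups of this same comparison, so that difference is given as a description without a test. The question for the other genes is whether known targets of the receptor followed it. RNA-seq of quadriceps muscle was compared between 3 control and 3 miDrp1KO mice, 3 weeks after deletion of *Dnm1l*, which encodes the mitochondrial fission protein Drp1. The miDrp1KO mice carried floxed *Dnm1l* alleles and HSA-MerCreMer, a Cre recombinase driven in muscle fibers by the human skeletal actin (*ACTA1*) promoter and kept inactive until tamoxifen is given. The control mice are labeled Control f/f and are taken here to carry the floxed allele without Cre. Mice of both groups received tamoxifen at 3 months of age, on a C57BL/6J background. Libraries are named by the letters of their labels, B, C and D for control and A, E and F for miDrp1KO.

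Estrogen receptor alpha, the product of *Esr1*, and estrogen receptor beta, the product of *Esr2*, are nuclear receptors that bind estradiol and then DNA at estrogen response elements, while *Gper1* encodes a G protein-coupled receptor at cell membranes. *Pgr*, the progesterone receptor gene, and *Greb1*, which encodes a cofactor of the receptor, are commonly read as signs of active estrogen receptor alpha in breast and uterus. Skeletal muscle expresses *Esr1* in both sexes. Tamoxifen is a ligand of estrogen receptors that blocks or activates them depending on the tissue. The Mer parts of HSA-MerCreMer are the mutated ligand-binding part of the mouse estrogen receptor, that is, a stretch of *Esr1* coding sequence. The files hold 1 number per gene, so reads of the transgene and reads of the *Esr1* gene cannot be told apart. The transgene is taken to be present only in the miDrp1KO group.

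Control libraries held 13989588 to 62042255 counts and miDrp1KO libraries 20028624 to 28829756, and ribosomal RNA genes took 3.36 to 15.6% and 1.48 to 24.4% of them. *Dnm1l* itself was at 156, 114 and 140 CPM (counts scaled to library size, with TMM factors) in control libraries B, C and D and at 70.6, 81.3 and 66.2 CPM in miDrp1KO libraries A, E and F, without overlap. In the fit of edgeR (quasi-likelihood test, Benjamini-Hochberg adjustment over 16483 genes), 0.0121% of tested genes had an adjusted p under 0.05. These were *Unc5a* and *Esr1*, and nothing is read from the count for *Esr1*, which was selected on this contrast. *Dnm1l*, the deleted gene, did not pass in this fit, so missing this threshold does not show that a gene is unchanged. The number of genes called depends on the tool. DESeq2, which the study used in another version, called 121 of the 2860 genes to which it gave an adjusted p. A further mark used below, an unadjusted p under 0.05, was reached by 4.68% of tested genes in the higher and 6.22% in the lower direction. All miDrp1KO libraries lay above all control libraries for 7.67% of tested genes and below them for 10.3%. The median log2 fold change over all tested genes was 0.017, with 52.0% of genes higher in miDrp1KO.

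The start sites of the members are shown first, because the element that estrogen receptor alpha binds is the feature that would tie a target to the receptor at its own promoter. Each window runs from 250 bases before to 50 after a RefSeq start (GRCm38.p6) and is written 5′ to 3′ along the gene. All 5 members matched, with 7 windows among them, and the windows of *Esr1*, *Pgr* and *Greb1* that bear on the comparison are printed. Capitals mark the arm of the element, GGTCA or, on the other strand, TGACC. The printed windows lie at chr10:4611739-4612038 (*Esr1*, plus strand), chr9:8899583-8899882 (*Pgr*, a start within the gene span given below, plus strand), chr12:16757190-16757489 (*Greb1*, a start within the gene, minus strand) and chr12:16800837-16801136 (*Greb1*, the outer start, minus strand).
Esr1: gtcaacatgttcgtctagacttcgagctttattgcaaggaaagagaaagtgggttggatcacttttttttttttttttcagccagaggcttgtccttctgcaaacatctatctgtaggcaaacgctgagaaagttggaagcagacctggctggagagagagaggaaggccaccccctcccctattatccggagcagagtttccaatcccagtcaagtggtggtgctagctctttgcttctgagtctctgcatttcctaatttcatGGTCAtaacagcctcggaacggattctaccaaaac
Pgr: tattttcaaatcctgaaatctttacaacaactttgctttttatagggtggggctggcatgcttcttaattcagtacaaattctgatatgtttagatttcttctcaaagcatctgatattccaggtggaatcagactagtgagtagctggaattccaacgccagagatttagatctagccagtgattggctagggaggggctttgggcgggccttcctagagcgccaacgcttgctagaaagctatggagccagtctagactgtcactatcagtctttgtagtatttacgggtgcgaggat
Greb1 inner start: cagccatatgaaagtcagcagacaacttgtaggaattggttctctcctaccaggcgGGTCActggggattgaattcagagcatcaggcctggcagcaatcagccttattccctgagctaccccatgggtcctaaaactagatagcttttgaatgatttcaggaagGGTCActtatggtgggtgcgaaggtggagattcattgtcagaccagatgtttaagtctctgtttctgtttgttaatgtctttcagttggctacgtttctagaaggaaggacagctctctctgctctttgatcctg
Greb1 outer start: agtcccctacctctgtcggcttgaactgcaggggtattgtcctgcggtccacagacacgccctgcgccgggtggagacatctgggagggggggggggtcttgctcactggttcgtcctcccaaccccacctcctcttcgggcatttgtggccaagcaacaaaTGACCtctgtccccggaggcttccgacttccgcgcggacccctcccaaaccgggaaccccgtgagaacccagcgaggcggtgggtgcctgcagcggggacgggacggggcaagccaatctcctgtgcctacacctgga

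An arm stood in 4 of the 7 member windows, and in 40.5% of the 32851 RefSeq windows of the same length. The inner window of *Greb1* held 2 and its outer window 1, and the first window of *Esr1* held 1, which began 15 bases after the start. The *Esr2* window held 2, and the windows of *Gper1*, *Pgr* and a second start within *Esr1* held none. The full palindrome GGTCANNNTGACC stood in none of the 7 windows and in 0.07% of all windows. These counts describe letters in short windows, and say nothing about binding there or farther away.

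*Esr1* (Entrez 13982) lies on the plus strand of chromosome 10, from 4611989 to 5005633 of GRCm38. It was at 34.6, 43.1 and 35.4 CPM in control libraries B, C and D and at 714, 464 and 476 CPM in miDrp1KO libraries A, E and F. Every miDrp1KO library was far above every control library, and A was the highest. The means were 37.7 ± 4.72 CPM (SD, n = 3) and 551 ± 141 CPM (SD, n = 3), a ratio of 14.6 and a log2 fold change of 3.87 (SE 0.25). Per kilobase of exon the level went from 2.76 to 40.4 CPM. Among 14833 tested genes with a known length, *Esr1* ranked between 5759 and 6444 in control libraries and between 398 and 620 in miDrp1KO libraries. The miDrp1KO ranks rest on counts that may hold transgene reads. The log2 fold change was 3.91 without the ribosomal RNA genes, and 3.66 without library A. In bulk muscle, fewer cells of a type and less RNA per cell cannot be told apart, and this holds for each gene below. *Acta1*, the mouse gene whose human counterpart lends the transgene its promoter, was at 17030, 17847 and 17565 CPM in control and 13221, 8245 and 14183 CPM in miDrp1KO libraries (log2 fold change -0.56, SE 0.33, adjusted p = 0.563 from edgeR).

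The other receptors were scarce. *Esr2* (chromosome 12, 76120419 to 76177259, minus strand) was covered by 10, 5 and 7 counts in control and 8, 33 and 12 counts in miDrp1KO libraries and did not pass the filter on low counts. In CPM it was at 0.473, 0.364 and 0.117 against 0.389, 0.809 and 0.576, and the groups overlapped (two-sided exact permutation test p = 0.2, n = 3 per group, smallest possible p 0.1). Fitted without the filter, its log2 fold change was 1.04 (adjusted p = 0.656 from edgeR). At this depth no difference in *Esr2* was detectable.

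*Gper1* (chromosome 5, 139423150 to 139427800, plus strand) was at 1.04, 1.02 and 1.03 CPM in control and 1.70, 1.20 and 1.15 CPM in miDrp1KO libraries. The groups did not overlap, but the values rest on 14 to 62 counts per library. The log2 fold change was 0.38 (SE 0.35, 95% interval -0.40 to 1.16, adjusted p = 0.727 from edgeR), and the exact permutation test gave its smallest possible p of 0.1. The log2 fold change was 0.21 without miDrp1KO library A, the highest of the 6. *Gper1* overlaps the opposite-strand gene *3110082I17Rik*, at 2.98, 3.43 and 2.78 CPM in control and 2.82, 3.51 and 5.18 CPM in miDrp1KO libraries. Whether strand was used in counting is not given in the sources used here, so reads of this pair may be shared.

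**Figure D1:**
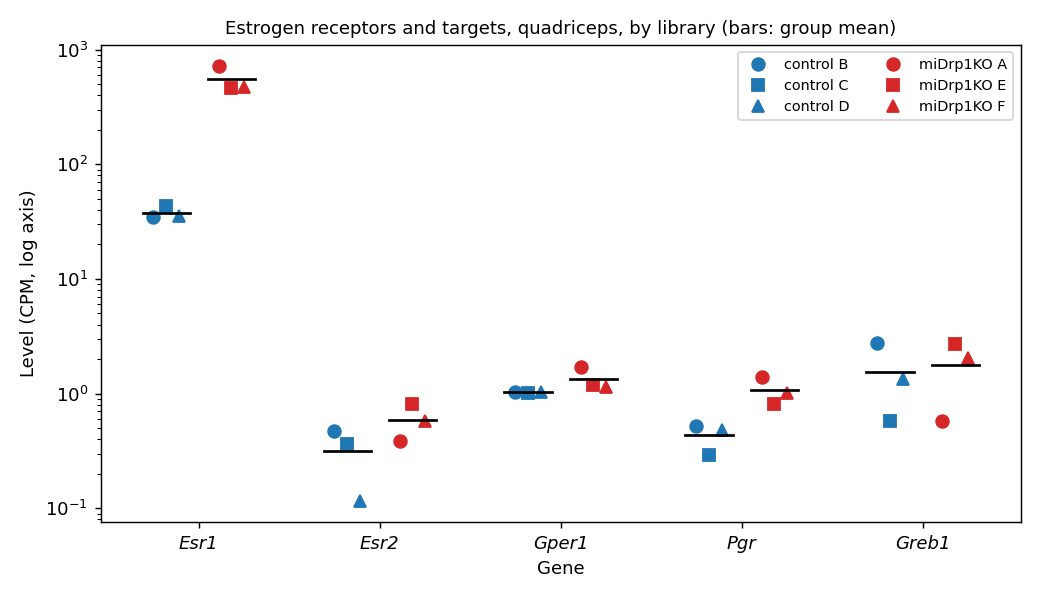
Level of each of the 5 genes in CPM (log axis) in each library, with control libraries in blue, miDrp1KO libraries in red and bars at the group means. *Esr1* stands at 464 to 714 CPM in miDrp1KO and 34.6 to 43.1 CPM in control libraries, while the other genes stay under 3 CPM in every library.

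The target genes *Pgr* and *Greb1* were both at low levels, and neither passed the test over all genes. *Pgr* (chromosome 9, 8898900 to 8968611, plus strand) was at 0.521, 0.292 and 0.483 CPM in control and 1.41, 0.809 and 1.01 CPM in miDrp1KO libraries. The groups did not overlap, and the values rest on 11, 4 and 29 counts in control and 29, 33 and 21 counts in miDrp1KO libraries. The log2 fold change was 1.25 (SE 0.46, 95% interval 0.23 to 2.27, unadjusted p = 0.021 and adjusted p = 0.393 from edgeR), so the difference did not pass the test over all genes. *Pgr* passed the filter on low counts only through the miDrp1KO libraries, where it was higher (2 of 3 control and 3 of 3 miDrp1KO libraries reached the level needed). The unadjusted p was 0.0759 without miDrp1KO library A and 0.0554 without control library C.

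*Greb1* (chromosome 12, 16670615 to 16801394, minus strand) was at 2.75, 0.583 and 1.33 CPM in control and 0.583, 2.70 and 2.06 CPM in miDrp1KO libraries. The groups overlapped over nearly their whole range, with the lowest value in a library of each group. The log2 fold change was 0.20 (SE 0.62, 95% interval -1.23 to 1.63, adjusted p = 0.932 from edgeR; exact permutation p = 0.9), and its sign turned without control library C (-0.15) or without miDrp1KO library E (-0.25). This interval holds both a fall and a rise of more than 2-fold. Of the members other than *Esr1*, 4 in all, 3 were tested and 0 passed the adjusted threshold in edgeR. Only *Pgr* had an unadjusted p under 0.05 in edgeR, DESeq2 and limma voom, and limma voom called none of them.

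A wider list of 45 genes known as estrogen targets in mouse or human tissue, with *Pgr* and *Greb1* among them, gave 39 tested genes. None passed the adjusted threshold in edgeR or limma voom, or among the 10 to which DESeq2 gave an adjusted p. At an unadjusted p under 0.05 in edgeR, 4 genes were higher (10.3%, against 4.68% of all tested genes) and 0 were lower (against 6.22%). Of these 4, *Pgr*, *Krt19* and *Tgfa* passed the filter on low counts only through the miDrp1KO libraries, where they were higher, so the count is a description and supports nothing about the list. With limma voom, RLE or upper quartile scaling, or without ribosomal RNA genes 5 were higher. With at least 10 counts in every library 2 were higher, as without control library D or miDrp1KO library E, and 2 were lower without miDrp1KO library A or control library C. In all, 23 were higher and 16 lower, and the median over the list was 0.079 on the log2 scale (0.017 over all tested genes). All miDrp1KO libraries lay above all control libraries for 6 genes (15.4%, against 7.67%) and below them for 1, *Siah2* (2.56%, against 10.3%). The 6 include *Pgr* and *Krt19*, which passed the filter only through the miDrp1KO libraries, so this share too is a description only. The upper 95% bound of the log2 fold change was under 1 in 28 of the 39 genes (71.8%, against 71.1% of all tested genes) and under 2 in 35 (89.7%, against 93.2%). It was under the *Esr1* value in 39 of 39, as in 99.5% of all tested genes, so that this is nothing particular to the targets.

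The 4 genes were *Krt19*, *Tgfa*, *Pgr* and *Kcnk5*, all of low level. *Krt19*, an epithelial keratin, was at 0.568, 0.583 and 0.15 CPM in control and 0.923, 1.13 and 1.30 CPM in miDrp1KO libraries (log2 fold change 1.52, SE 0.57, adjusted p = 0.394 from edgeR). *Kcnk5*, a potassium channel gene, was at 0.994, 1.46 and 0.666 CPM against 1.70, 2.18 and 2.59 CPM (1.12, SE 0.38, adjusted p = 0.382 from edgeR). *Tgfa*, which encodes a ligand of the EGF receptor, was at 0.710, 0.146 and 0.466 CPM against 1.46, 1.32 and 0.576 CPM (1.28, SE 0.56, adjusted p = 0.443 from edgeR). The groups overlapped for *Tgfa* and not for *Krt19* and *Kcnk5*, and none of the 3 passed the adjusted threshold. Without control library D, *Krt19* was at 0.97 and *Kcnk5* at 0.85, with unadjusted p of 0.0891 and 0.0626 from edgeR. The unadjusted p of *Krt19* was also above 0.05 without miDrp1KO library E or F (0.0531 and 0.0671), and that of *Tgfa* without miDrp1KO library A or E or control library C or D (0.0867 to 0.131).

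The targets with the most reads differed little. *Ctsd*, the lysosomal protease cathepsin D, was at 437, 501 and 489 CPM in control and 507, 447 and 585 CPM in miDrp1KO libraries (log2 fold change 0.11, 95% interval -0.33 to 0.55). *Hspb8*, a small heat shock protein, had a log2 fold change of 0.05 (-0.48 to 0.58), complement gene *C3* one of -0.07 (-0.79 to 0.66) and *Vegfa*, the angiogenic growth factor, one of -0.03 (-0.62 to 0.55). Groups overlapped for all 4, and the sign of *Hspb8*, *C3* and *Vegfa* turned under some alternatives. The 6 targets that failed the filter (*Ltf*, *Tff1*, *Areg*, *Egr3*, *Oxt* and *Aqp5*) had at most 18 counts in any library.

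**Figure D2:**
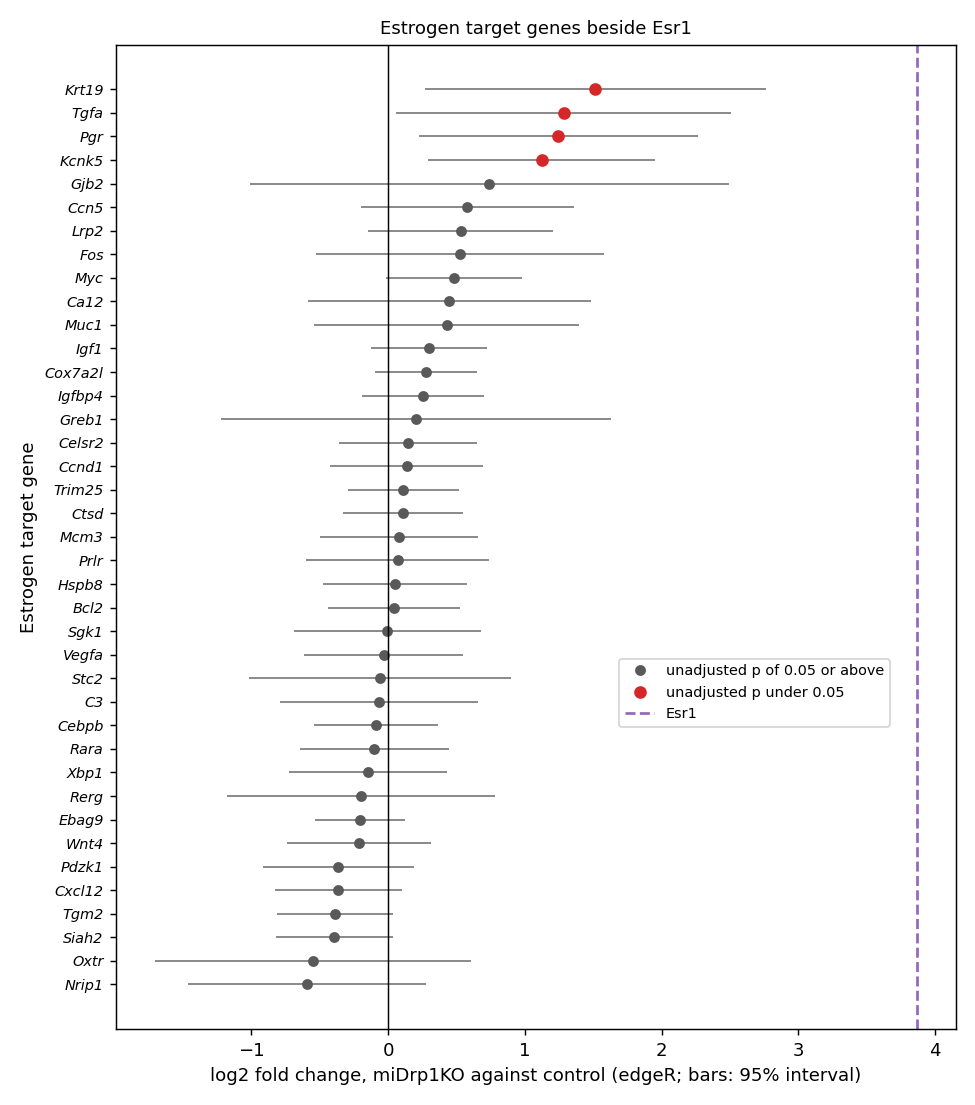
Log2 fold change (miDrp1KO against control, edgeR) of the 39 tested estrogen target genes, with 95% intervals as bars. Red points mark the 4 genes with an unadjusted p under 0.05, and the dashed line marks *Esr1* at 3.87, to the right of every interval, as it is for 99.5% of all tested genes.

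Genes that take part in receptor action were read in the same way. Coregulators bind the ligand-bound receptor and open or close chromatin, and 19 of 20 were tested. None passed the adjusted threshold in edgeR or limma voom, or among the 10 to which DESeq2 gave an adjusted p. In all, 17 of 19 were lower, with a median log2 fold change of -0.26 (-0.345 without miDrp1KO library A, -0.146 without miDrp1KO library F). At an unadjusted p under 0.05, 0 were higher and 6 lower (31.6%, against 6.22% of all tested genes). The 6 became 4 with DESeq2 and 3 with upper quartile scaling. The count was 1 without control library B, control library D or miDrp1KO library E, and 2 without miDrp1KO library F. It was 4 without control library C and 7 without miDrp1KO library A. Fits without a library have fewer replicates, and the median stayed negative in each of them. *Smarca4*, the motor of a chromatin remodeling complex, was at 62.0, 57.1 and 66.0 CPM in control and 50.7, 39.8 and 26.5 CPM in miDrp1KO libraries (log2 fold change -0.66, SE 0.22, adjusted p = 0.382 from edgeR). *Kat2b*, a histone acetyltransferase, was at 131, 130 and 135 CPM against 109, 96.1 and 91.4 CPM (-0.42, SE 0.16, adjusted p = 0.41 from edgeR). Neither pair of groups overlapped, and *Smarca4* was at -0.43 without miDrp1KO library F. *Carm1*, an arginine methyltransferase, had a log2 fold change of -0.39 (SE 0.16) without overlap, and *Pelp1*, a scaffold of receptor complexes, one of -0.58 (SE 0.21) with overlap.

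Chaperones hold unliganded steroid receptors, and also the Mer parts of the transgene, in a form that can bind ligand. All 10 were tested, and none passed the adjusted threshold in edgeR or limma voom, or among the 6 to which DESeq2 gave an adjusted p. The median log2 fold change was -0.29, and ran from -0.419 without control library C to -0.154 without control library D. At an unadjusted p under 0.05, 1 was higher (1 of 10, against 4.68% of all tested genes) and 2 were lower (20.0%, against 6.22%). The number lower was 0 without control library D or miDrp1KO library E and 3 without control library C or miDrp1KO library F, and the 1 higher gene, *Dnajb1*, kept an unadjusted p under 0.05 in each of these fits. *Dnajb1*, an HSP40 co-chaperone, was at 2.75, 3.13 and 3.63 CPM in control and 4.37, 5.98 and 8.45 CPM in miDrp1KO libraries (0.97, SE 0.27, adjusted p = 0.362 from edgeR). *Hsp90ab1*, the constitutive cytosolic HSP90, was at 899, 873 and 1082 CPM against 759, 528 and 557 CPM (-0.63, SE 0.23, adjusted p = 0.392 from edgeR). Both were without overlap. *Stip1*, which links HSP70 to HSP90, had a log2 fold change of -0.46 (SE 0.21) and *Cdc37*, a kinase co-chaperone of HSP90, one of -0.35 (SE 0.18), with overlapping groups. *Stip1* was at -0.26 without control library D.

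Of 12 genes that make or inactivate estrogens, 11 were in the files and 7 were tested. In edgeR, DESeq2 or limma voom on all libraries, 0 had an unadjusted p under 0.05. The median log2 fold change was -0.08, and ran from -0.19 without miDrp1KO library E to 0.05 without miDrp1KO library A. *Hsd17b4*, an enzyme that can oxidize estradiol, had a log2 fold change of -0.29 (SE 0.17). *Hsd17b7*, which can reduce estrone to estradiol, had one of -0.40 (SE 0.27). *Cyp1b1* and *Cyp1a1*, estrogen hydroxylases, had ones of 0.56 (SE 0.33) and -0.08 (SE 0.34). Groups overlapped for each of these 4 genes. Single libraries moved the values. *Cyp1b1* was at 0.18 without miDrp1KO library F and 0.89 without E (unadjusted p = 0.00731 from edgeR). *Hsd17b7* was at -0.62 without miDrp1KO library A (unadjusted p = 0.0438 from edgeR) and -0.14 without control library C. *Hsd17b4* was at -0.43 without control library C (unadjusted p = 0.0445 from edgeR) and -0.15 without control library B.

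Other receptor genes of the steroid and estrogen-related families showed small or imprecise differences. The 5 genes described (*Nr3c1*, *Nr3c2*, *Esrra*, *Esrrb* and *Esrrg*) were all tested, and 0 had an unadjusted p under 0.05 in edgeR, DESeq2 or limma voom. The median log2 fold change was 0.06. It ran from -0.04 without control library D to 0.36 without miDrp1KO library A or control library B. Their log2 fold changes ran from -0.05 (*Nr3c1*, the glucocorticoid receptor) to 0.76 (*Esrrg*, SE 0.91). The *Esrrg* value rested on single libraries, at 0.004 without miDrp1KO library E and 1.69 without control library B. *Esrra*, an estrogen-related receptor gene, had one of 0.22 (SE 0.23) and the mineralocorticoid receptor gene *Nr3c2* one of -0.04 (SE 0.15).

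Per kilobase of exon, the order of mean levels in control muscle was *Nr3c1* (30.3 CPM per kb), *Esrra* (7.70), *Nr3c2* (4.62), *Esrrg* (3.11), *Esr1* (2.76), *Esrrb* (0.567), *Gper1* (0.407), *Esr2* (0.0945) and *Pgr* (0.0505). Neighbors whose control libraries overlapped were *Nr3c2* and *Esrrg*, *Esrrg* and *Esr1*, *Esrrb* and *Gper1*, and *Esr2* and *Pgr*. In miDrp1KO muscle the counts given to *Esr1* came first, at 34.0 to 52.3 CPM per kb, above *Nr3c1* at 27.8 to 31.8. These counts may hold transgene reads, so this place cannot be read as that of the receptor transcript. *Gper1*, *Esr2* and *Pgr* stayed under 1 CPM per kb in every library of both groups.

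**Figure D3:**
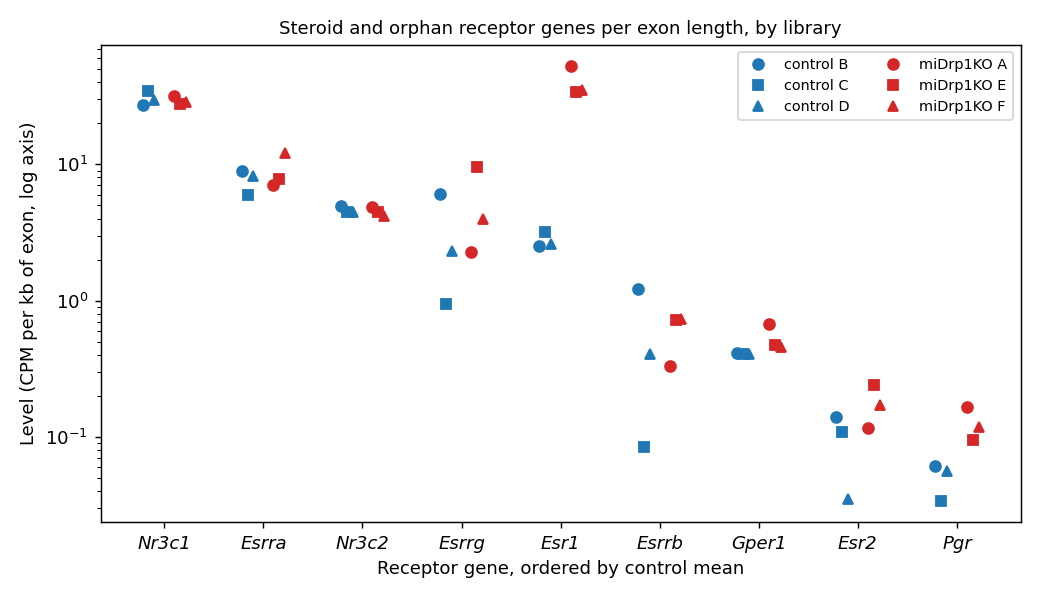
Level of 9 receptor genes in CPM per kb of exon (log axis) in each library, ordered by the control mean. *Esr1* goes from the middle of the order in control (2.53 to 3.16) to the top in miDrp1KO libraries (34.0 to 52.3), where its counts may hold transgene reads. The groups overlap for each of the other genes but *Gper1* and *Pgr*.

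The genes beside *Esr1* on chromosome 10 did not share its difference. Before its start, *Ccdc170* (47.5 kb away) had a log2 fold change of 0.13 (SE 0.36), *Armt1* (156.8 kb) one of 0.02 (SE 0.17) and *Rmnd1* (179.6 kb) one of -0.06 (SE 0.18). After its end, *Syne1*, which encodes the nuclear envelope protein nesprin-1 and begins 14.6 kb away, was at 137, 119 and 129 CPM in control and 114, 106 and 71.0 CPM in miDrp1KO libraries. Its groups did not overlap, with miDrp1KO lower, and its log2 fold change of -0.41 (SE 0.20, adjusted p = 0.496 from edgeR) did not pass the test. *Myct1* (588.1 kb) had a log2 fold change of -0.004 (SE 0.36), and *Vip* (633.6 kb) was under 1 CPM in every library and was not tested.

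**Figure D4:**
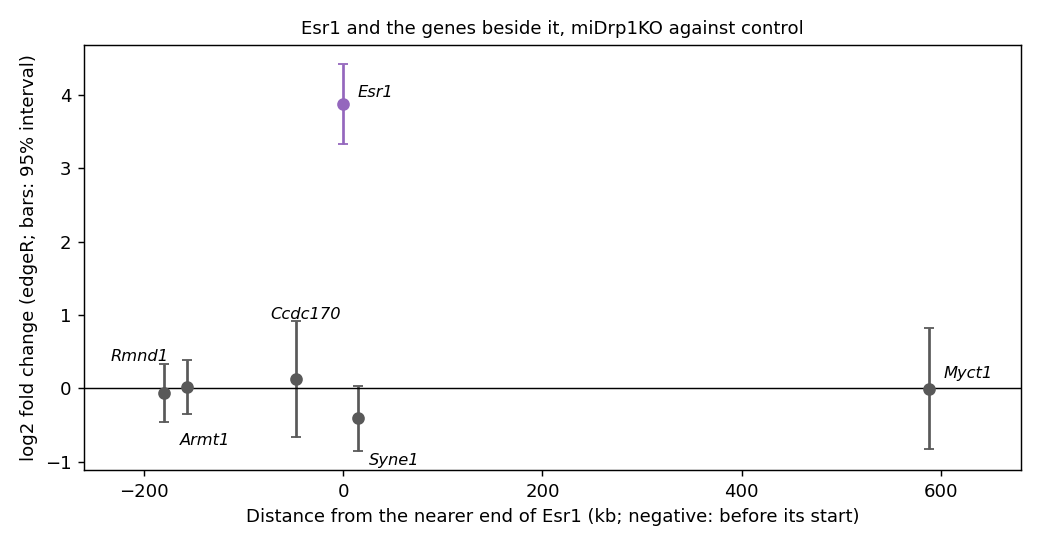
Log2 fold change (edgeR, bars 95% intervals) of *Esr1* and its tested neighbors against the distance in kb from the nearer end of *Esr1*. The 5 neighbors lie between -0.41 and 0.13, and *Esr1* lies at 3.87.

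Among the 5 genes whose log2 CPM followed *Esr1* most closely over the 6 libraries (13563 genes with a mean of at least 1 CPM) were *Pcdhgb6* (Pearson r 0.997), *Fancb* (0.989), *Mcm5* (0.979) and *Ppp1r18* (0.976). The lowest r values were those of *Scn4b* (-0.994), *Ap2m1* (-0.993), *Rpap1* (-0.991), *Fuca2* (-0.990) and *Tbc1d7* (-0.988). The 6 libraries fall into 2 groups by genotype, so r mainly reflects the group difference and is given as a description: 121 genes had r above 0.9 and 201 below -0.9. The ratio of group means was 1.36 to 1.48 for the first 4 and 0.625 to 0.828 for the last 5, against 14.6 for *Esr1*. *Gper1* had r of 0.78 with *Esr1* and *Greb1* of 0.00, and *Pgr* was below the level used.

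Marker genes of muscle fibers were abundant in all libraries, as the label requires, and their summed level ran from 243944 to 299749 CPM in control and 111935 to 227338 CPM in miDrp1KO libraries, with 9 of 10 markers lower and 4 of 10 below without overlap (40.0%, against 10.3% of all tested genes). Adipocyte markers, a cell type with its own estrogen receptor expression, summed to 1196 to 2394 CPM in control and 689 to 1438 CPM in miDrp1KO libraries, with 9 of 10 lower and 3 below without overlap (30.0%, against 10.3%). Much of these sums came from *Car3* and *Plin4*, with means of 538 and 522 CPM in control and 285 and 330 CPM in miDrp1KO. The adipocyte sums thus do not weigh the markers equally. Fibro-adipogenic markers summed to 1972 to 3321 and 2360 to 3409 CPM, with 8 of 10 higher and 0 of 10 without overlap. Macrophage and leukocyte markers summed to 177 to 319 and 263 to 293 CPM, with 7 of 10 higher and 3 above without overlap (30.0%, against 7.67%). None of these markers passed the adjusted threshold in edgeR or limma voom, and DESeq2 called 1 muscle fiber and 1 adipocyte marker. At an unadjusted p under 0.05 in edgeR, 2 muscle fiber and 3 adipocyte markers were lower (20.0% and 30.0%, against 6.22% of all tested genes), 4 macrophage and leukocyte markers were higher (40.0%, against 4.68%), and 0 fibro-adipogenic markers reached it in either direction. At the same mark, DESeq2 put 6 muscle fiber and 7 adipocyte markers lower, and limma voom 2 and 7. It was reached in the higher direction by 3 macrophage and leukocyte markers with DESeq2 and 5 with limma voom. Without single libraries the edgeR counts ran from 0 to 4 lower for muscle fiber and from 1 to 4 lower for adipocyte markers. They ran from 2 to 7 higher for macrophage and leukocyte and from 0 to 2 higher for fibro-adipogenic markers. No defining marker was at 0 in any library, and the part of these cell types in the values above was not tested.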

How the data were processed

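The authors deposited raw, unnormalized counts per gene, 1 file per library, and the study's methods name ribosomal RNA depletion, stranded total RNA libraries, FastQC, Rsubread on GRCm38 and DESeq2 1.30.0 for testing. Strand and multi-mapping settings are not given in the sources used here. The quasi-likelihood test of edgeR 4.0.16 (R 4.3.3) was run on them after filterByExpr within genotypes and TMM scaling, with robust fitting and p-values adjusted by Benjamini-Hochberg across 16483 genes (threshold 0.05). CPM used TMM library sizes, and log2 CPM a prior count of 2. Exon lengths came from GENCODE (GRCm38) by Entrez identifier. Gene coordinates and distances came from RefSeq genes (GRCm38), and strands and overlapping genes from GENCODE by gene name. The labels name each library as a separate sample, and p-values measure the spread between these samples. Members, gene lists and alternatives were chosen with earlier results of these data known. Genes named were the members, of each list the 4 with the smallest p, for targets also the 4 with the highest mean CPM, the 5 most and least like *Esr1*, and the 3 nearest genes on each side. Outside this rule, *Siah2*, *Unc5a*, *Car3*, *Plin4* and the 6 untested targets were picked with their values in view. *Acta1*, *Dnm1l*, *Esrrb* and *3110082I17Rik*, which overlaps *Gper1*, are also named outside it. Some genes that the rule or lists would name are not reported here. The fit was tested on simulated counts, but the outcome is not reported here and nothing above rests on it. Alternatives were DESeq2 1.42.0, voom in limma 3.58.1, scaling by RLE or by the upper quartile, every gene with a count, at least 10 counts in every library, leaving out ribosomal RNA genes and *Lars2*, total counts as library size, and leaving out each library. Counts set the precision, and the genes at about 1 CPM rest on few reads.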

Additional observations from a re-analysis of the deposited data

How the results depend on the processing

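The *Esr1* log2 fold change ran from 3.66 to 3.99 over the 13 alternatives. Over 27 named genes and 347 refits, 322 kept direction and 25 turned sign. Among the 332 refits with an adjusted p (DESeq2 gave none for 15 of the genes), 0 newly passed the threshold. The number of genes called by edgeR, 2 in all, was 121 with DESeq2, 1 with limma voom and 8 with no filter, and ran from 1 to 7 without single libraries (7 without miDrp1KO library A, 1 without E or F). DESeq2 settings added after the data were seen (another filtering level, the genes edgeR tested, both) gave 82, 94 and 55 calls, so this count depends on its filtering. Estrogen targets with an unadjusted p under 0.05 numbered 2 higher at 10 counts in every library, 5 higher with limma voom (and 1 lower), RLE, upper quartile or without ribosomal RNA genes, and 4 higher with DESeq2 or no filter. Without single libraries they ran from 2 to 4 higher (2 without control library D or miDrp1KO library E) and from 0 to 2 lower (2 without miDrp1KO library A or control library C). Their median log2 fold change was 0.168 with upper quartile normalization and 0.119 without ribosomal RNA genes, and ran from 0.058 to 0.15 without single libraries. Signs turned for *C3* and *Vegfa* with limma voom (0.012 and 0.025), for *C3*, *Vegfa*, *Cyp1a1*, *Nr3c2* and *Nr3c1* with upper quartile normalization (0.027, 0.055, 0.012, 0.049 and 0.044), for *Vegfa* and *Nr3c2* with at least 10 counts (0.009 and 0.004) and without ribosomal RNA genes (0.009 and 0.002). Without single libraries they turned for *Greb1* (-0.245 to 0.842), *Hspb8* (-0.147 to 0.223), *C3* (-0.311 to 0.406), *Vegfa* (-0.273 to 0.321), *Cyp1a1* (-0.188 to 0.057), *Esrra* (-0.038 to 0.391), *Nr3c2* (-0.082 to 0.038) and *Nr3c1* (-0.104 to 0.04). The cause was not tested. TMM factors ran from 0.840 (control library B) to 1.419 (miDrp1KO library E). With total counts as library size, each member had a lower control mean and a higher miDrp1KO mean. *Gper1* had a control mean of 0.958 CPM in place of 1.03. *Greb1* had control and miDrp1KO means of 1.39 and 2.15 CPM in place of 1.55 and 1.78. *Esr2* had 0.289 and 0.691 CPM in place of 0.318 and 0.591. No paired analysis was possible because the libraries of the groups share no replicate letter.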
